A study of Homo sapiens with 4 samples.

Results

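The genes described here are pseudogenes of abundant genes that do not encode ribosomal proteins, read out in HEK293 cells with and without a knockout (KO) of HEMK1. Members were the features whose symbol is 1 of 28 parent gene symbols followed by P and a number, and which held 20 or more counts summed over the 4 libraries. Of 78686 features in the count tables, 790 carried such a name. Among these, 539 had no count, 172 had 1 to 19 counts, and 79 were members. All 79 are annotated as processed pseudogenes in GENCODE 29, and they belong to 19 of the parents. The members were chosen by their name and selected on their counts summed over all 4 libraries, and the list of parents was drawn up with results of KO against WT in view, so levels are given as a description. Just inside the threshold were TPT1P9 with 20 counts and HNRNPA1P41 and PTMAP2 with 21, and just outside were COX6A1P2, LDHAP7 and NPM1P37 with 19.

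HEK293 is a human embryonic kidney cell line, and HEMK1 is a glutamine methyltransferase of the mitochondrial release factors. The wild-type (WT) group is the unedited line, with 2 libraries, and the KO group is 1 clone (1F8), also with 2 libraries. To make it, cells received both Cas9 plasmids, each with its own guide against HEMK1, and were sorted singly on mCherry and grown up, so that the genotype and the choice of clone cannot be told apart. The libraries read polyadenylated RNA, prepared with a kit for low amounts of RNA from an input of 100 ng.

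A processed pseudogene arises when an mRNA is reverse transcribed and its copy is inserted elsewhere in the genome, so it lacks the introns and usually the promoter of its parent. Genes with abundant mRNA in the germ line left many such copies, and most have since gathered substitutions, frameshifts and stop codons. Because a copy can stay close to the parent's sequence, a short read may match both, and the count of a pseudogene then depends on how such reads were assigned. The sources used here give neither the read length nor the treatment of reads with several matches, so counts of the most similar copies are uncertain.

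Aligned stretches of a pseudogene and of its parent are shown for 5 members on which the results turn, to show how much or how little sequence tells each pair apart. Sequences are the transcripts of GENCODE 29 on GRCh38, written 5′ to 3′ on the strand of the gene, and capitals mark bases of the pseudogene that differ from or are inserted against the parent. A base missing from a pseudogene is not marked. EEF1A1P5 (chr9:133019486-133020874, plus strand) was the member with the most counts, and the window shown holds the most differing bases of any window of its length.
EEF1A1P5: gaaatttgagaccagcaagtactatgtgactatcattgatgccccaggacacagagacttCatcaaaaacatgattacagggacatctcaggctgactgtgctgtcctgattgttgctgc
EEF1A1: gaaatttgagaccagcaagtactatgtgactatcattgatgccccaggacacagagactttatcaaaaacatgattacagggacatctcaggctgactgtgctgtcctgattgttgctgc
EIF4A1P10 (chrX:92113246-92114461, minus strand) lies opposite an intron of PCDH11X, and its start is shown because its reading frame meets a stop after 7 codons.
EIF4A1P10: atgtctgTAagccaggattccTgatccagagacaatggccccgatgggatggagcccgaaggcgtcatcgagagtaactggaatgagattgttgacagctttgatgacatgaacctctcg
EIF4A1: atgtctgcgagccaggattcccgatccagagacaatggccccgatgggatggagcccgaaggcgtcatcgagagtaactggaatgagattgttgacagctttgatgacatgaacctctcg
NPM1P27 (chr5:93682838-93683667, minus strand) lies in an intron of FAM172A, and PPIAP22 (chr21:18857779-18858276, plus strand) is another of the closest copies. Both are shown at their most divergent window.
NPM1P27: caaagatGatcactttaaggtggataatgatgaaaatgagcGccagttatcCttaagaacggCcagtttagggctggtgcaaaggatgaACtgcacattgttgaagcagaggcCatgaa
NPM1: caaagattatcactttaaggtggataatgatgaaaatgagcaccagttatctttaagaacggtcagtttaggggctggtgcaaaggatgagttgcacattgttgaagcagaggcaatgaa
PPIAP22: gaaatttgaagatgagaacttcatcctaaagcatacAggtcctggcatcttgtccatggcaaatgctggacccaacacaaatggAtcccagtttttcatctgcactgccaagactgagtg
PPIA: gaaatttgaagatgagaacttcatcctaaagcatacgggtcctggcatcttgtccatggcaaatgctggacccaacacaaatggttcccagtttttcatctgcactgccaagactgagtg
HMGB1P6 (chr15:71164770-71165415, minus strand) was, of the tested members, the one with the highest fitted value in KO over WT.
HMGB1P6: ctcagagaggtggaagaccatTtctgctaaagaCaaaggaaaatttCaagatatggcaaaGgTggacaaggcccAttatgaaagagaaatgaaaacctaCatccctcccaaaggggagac
HMGB1: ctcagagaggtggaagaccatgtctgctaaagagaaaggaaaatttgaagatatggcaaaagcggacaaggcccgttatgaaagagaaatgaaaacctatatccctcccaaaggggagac

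Over the aligned stretch, identity between a member and its parent had a median of 96.06% and ran from 86.69% in CYCSP27 to 99.71% in EEF1A1P5, with 12 members at 98% or above. EEF1A1P5 differed from the EEF1A1 mRNA by 4 substitutions over 1389 bases, and PPIAP22 was 99.6% identical to PPIA. In the median member, 99.1% of 100-base windows occurred in the transcript of no other gene, and 60 of 79 members had 90% or more such windows. At the other end of the range, 0% of windows were their own in HNRNPA1P7 and TMSB4XP6, and in EEF1A1P5 the share was 25.9%. Windows were sought on both strands, and an exon of another gene lies opposite HNRNPA1P7 (AC021224.1) and TMSB4XP6 (BCAS4). The parent held 64.0% of the windows of HNRNPA1P7 and 63.9% of those of TMSB4XP6, so the 0% does not measure likeness to the parent alone. Of the 79 members, 64 keep a start codon at the parent's position, 51 carry at least 1 frameshift and 11 have a reading frame open for as many codons as the parent. EEF1A1P5 and EEF1A1P13 are among these 11, each with 462 of 462 codons, as are PPIAP22 with 165 and HNRNPA1P7 with 320. The members lie on 22 chromosomes, 2 of them on the chromosome of their parent, and 34 lie within the body of another gene, 30 of these in introns only.

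Depth ran from 2476471 to 3202039 gene counts per library. HEMK1 itself had 6 and 9 counts in WT and 1 and 7 in KO, so the groups overlap and its RNA does not check the labels at this depth. The HEK293 markers KRT8, KRT18, VIM, NEFL and NEFM were detected in every library. Of 6 blood and immune markers, all were at 0 in WT, and the highest in KO were HBB with 4 and 11 counts and LYZ with 0 and 13. Across all genes, 35 of 10670 tested were called between KO and WT (0.328%; edgeR quasi-likelihood test, Benjamini-Hochberg adjusted p under 0.05), 30 lower and 5 higher in KO. With 2 libraries in a group, no exact permutation test of a single value can give a two-sided p below 0.333.

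WT replicate 1 stands apart for these pseudogenes. It was the highest library for 68 of the 79 members, against 2 for WT replicate 2, 3 for KO replicate 1 and 6 for KO replicate 2. Among the 65 members that passed the filter on low counts, WT replicate 1 was highest for 89.2%, beside 24.0% of all tested genes. Other pseudogenes shared this: it was highest for 81.8% of tested ribosomal protein pseudogenes and 60.8% of other processed pseudogenes, beside 21.5% of protein-coding genes. The other libraries were each highest for 2 or 3 of the 65, beside 24.7% of all tested genes for WT replicate 2, 25.2% for KO replicate 1 and 26.1% for KO replicate 2. WT replicate 2 lay below WT replicate 1 for 63 of 65 tested members, which is 96.9% beside 49.4% of all tested genes, and for 76 of all 79. The median difference of WT replicate 2 from WT replicate 1 was -0.78 on the log2 scale over the tested members, and 0.01 over all tested genes. The parents shared part of this. Of the 27 tested parents, WT replicate 1 was highest for 37.0%, and WT replicate 2 lay below it for 77.8%. Their median difference was -0.19. Values without this library are given beside the main results.

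**Figure D1:**
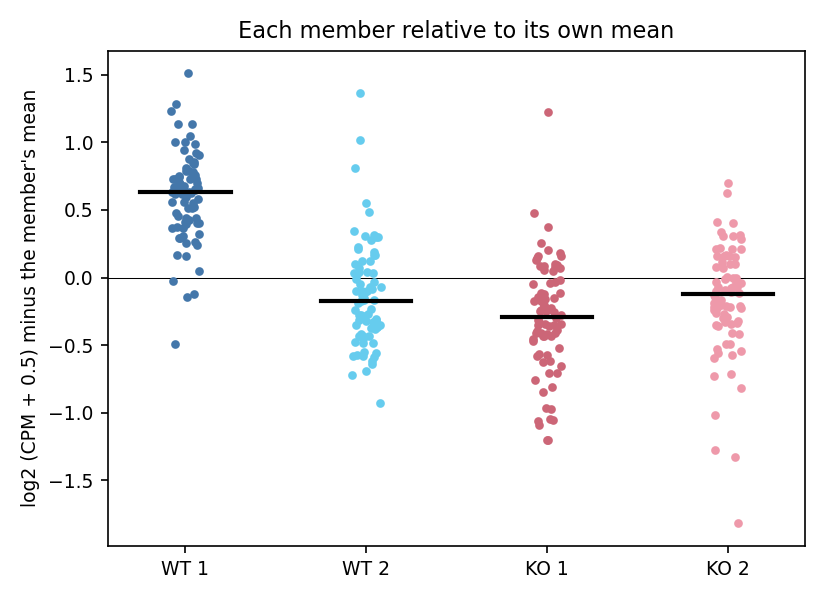
Level of 78 members in each library, as log2 (CPM + 0.5) minus the mean of that member over the 4 libraries. Points are members and black bars are medians, which lie at 0.63 in WT replicate 1, -0.17 in WT replicate 2, -0.29 in KO replicate 1 and -0.12 in KO replicate 2.

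No member was called between KO and WT. The edgeR quasi-likelihood test called 0 of 65 tested members at an adjusted p under 0.05, beside 0.281% of all tested genes called lower and 0.0469% called higher. At an unadjusted p under 0.05 it gave 13 members lower and 1 higher, beside 4.35% and 4.09% of all tested genes. Without WT replicate 1 these were 2 lower and 5 higher of 65, beside 3.53% and 4.24%. So few members do not show a lean to higher levels. The median log2 fold change of the 65 was then -0.013, with 33 below 0, so they leaned to neither side. Without WT replicate 2 the members at an unadjusted p under 0.05 were 33 lower and 0 higher of 72, beside 4.56% and 2.16%. DESeq2 also called 0. Of 79 members it put 6 lower and 0 higher by the unadjusted p, beside 0.841% and 0.392% of the 28313 features it tested. Those features were not filtered on low counts, whereas members were selected for a minimum of summed counts. Their shares are therefore not a like-for-like background, and no excess of members is read from them. In the authors' deposited table, 0 of the 78 members with an adjusted p were under 0.05, and the smallest adjusted p was 0.497. The other 14 members did not pass the filter on low counts. Some tested members, such as HNRNPA1P59, passed it through their WT counts alone, which favours low values in KO.

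The fitted values leaned to lower levels in KO. Of the 65 tested members, 57 lay below 0 in log2 fold change (KO over WT), which is 87.7% beside 48.8% of all tested genes. The median was -0.50, with quartiles of -0.77 and -0.20, and the median over all tested genes was 0.01. Both KO libraries lay below both WT libraries for 24 of 65 members, which is 36.9% beside 18.0% of all tested genes, and above both for 2, which is 3.08% beside 21.2%. Against WT replicate 2 alone, both KO libraries were lower for 25 of 65, beside 33.7% of all tested genes. Without WT replicate 1, 65 members again passed the filter, 64 of them the same, and their median was -0.013, with 33 below 0. Over the 64 shared members the median was -0.49 with all libraries and -0.027 without WT replicate 1. Without WT replicate 2 the median was -0.92. Since RNA was taken from whole cultures, fewer expressing cells and less RNA per cell cannot be told apart.

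The summed level shows the same dependence. All members together held 3675 CPM (counts scaled to equal library totals, without TMM factors) in WT replicate 1 and 2061 in WT replicate 2, against 2408 and 2398 in the KO libraries. The WT libraries thus lie on either side of both KO libraries, with a mean of 2868 ± 1142 CPM (SD, n = 2) against 2403 ± 6.90 CPM (SD, n = 2). The log2 ratio of KO over WT was -0.26 with all libraries and 0.22 without WT replicate 1. Relative to the parents, members made up 9.28% of the counts of members and parents in WT replicate 1, 6.29% in WT replicate 2, and 6.25% and 6.23% in KO. On that share, WT replicate 2 and the KO libraries were close together.

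Translation factors gave most of the counts. The 16 members of EEF1A1, the elongation factor that delivers aminoacyl-tRNA to the ribosome, held 17264 of the 29162 member counts, or 59.2%. Summed over these members the level without TMM factors was 2212 CPM in WT replicate 1 and 1153 in WT replicate 2, against 1449 and 1426 in KO. Per 100 counts of EEF1A1 itself, the members had 18.7 counts in WT replicate 1, 12.4 in WT replicate 2, 11.5 in KO replicate 1 and 11.7 in KO replicate 2. EEF1A1 had a log2 fold change of 0.23 ± 0.19 (SE), with an adjusted p of 0.792 by edgeR.

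EEF1A1P5 had 913 and 458 CPM in WT and 750 and 654 in KO. Both KO libraries lay between the WT libraries, and the log2 fold change was 0.036 ± 0.29 (SE; edgeR adjusted p = 0.993), and 0.62 without WT replicate 1. Per kilobase, EEF1A1P5 had 5549 counts over the 4 libraries and EEF1A1 had 56230. EEF1A1P6 had 346 and 179 CPM in WT and 201 and 231 in KO, and EEF1A1P13 had 324 and 177 in WT and 166 and 199 in KO. In both, WT replicate 1 was the high library and the other 3 lay close together.

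EEF1A1P9 (199 and 79.7 CPM in WT, 74.0 and 85.7 in KO) and EEF1A1P11 (165 and 91.8 in WT, 82.6 and 95.8 in KO) had the same form. For EEF1A1P9 the log2 fold change was -0.80 ± 0.38 (SE; edgeR adjusted p = 0.642) with all libraries and 0.0027 without WT replicate 1. It was called without WT replicate 2 (edgeR adjusted p = 0.0459) and without KO replicate 2 (0.00717). Within the family, 14 of 15 tested members lay below 0, with a median of -0.46, and the median was 0.21 without WT replicate 1. EEF1A1P8 had 10.3 and 7.35 CPM in WT and 2.75 and 5.41 in KO, groups that do not overlap, with a fold change of -1.08 ± 0.45 on the log2 scale (SE; edgeR adjusted p = 0.537), and -0.83 without WT replicate 1.

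**Figure D2:**
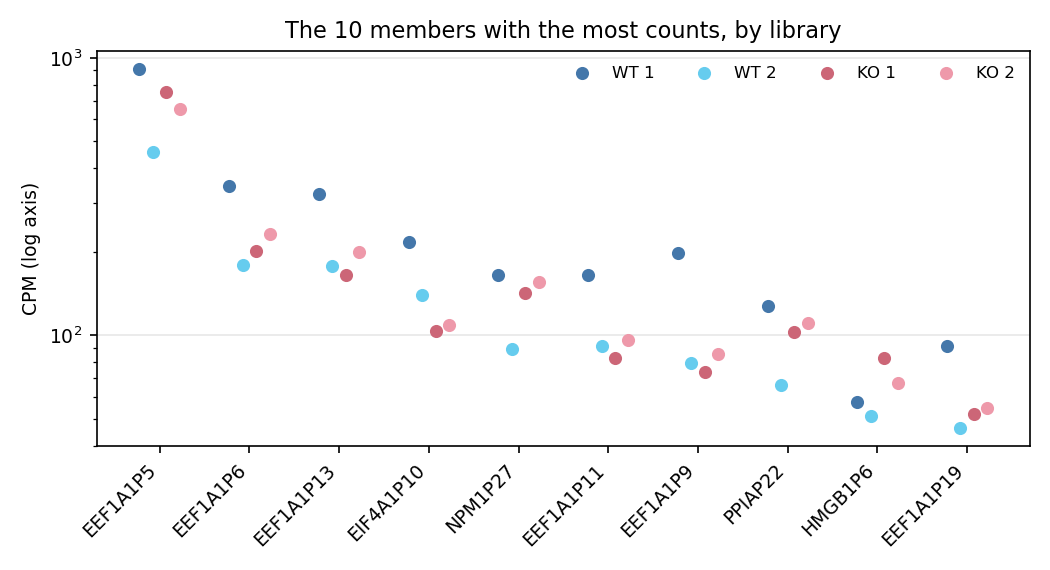
CPM (log axis, TMM-scaled library sizes) of the 10 members with the most counts, with 1 point for each library. WT replicate 1 is the highest library in 9 of the 10, and the exception is HMGB1P6, with 57.5 CPM there and 82.6 in KO replicate 1.

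EIF4A1, the RNA helicase that unwinds mRNA leaders at the start of translation, has 4 members, whose median was -0.75 with all libraries and -0.34 without WT replicate 1. EIF4A1P10 had 216 and 140 CPM in WT and 104 and 109 in KO, so that both WT libraries lay above both KO libraries. The log2 fold change was -0.74 ± 0.19 (SE), with an unadjusted p of 0.00288 and an adjusted p of 0.242 by edgeR, and -0.40 without WT replicate 1. It was called without a filter on low counts (adjusted p = 0.00349) and without KO replicate 2 (adjusted p = 0.0306), both by edgeR. The 4 members of the family lay between -0.78 and -0.56. EIF4A1 itself was listed with 6 and 13 counts in WT and 5 and 3 in KO, while EIF4A1P10 had 527, 382, 302 and 343. None (0%) of the 100-base windows of the EIF4A1 coding sequence occurred in EIF4A1 alone. The annotation holds a readthrough gene, SENP3-EIF4A1, over its exons, which was listed at 0 in every library. The 0% therefore does not show how far the copies resemble EIF4A1. Of the 100-base windows of EIF4A1P10, 7.0% occurred in EIF4A1 and 84.8% in no other gene. Whether reads of EIF4A1 were counted at its copies was not tested.

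EEF1B2, the exchange factor that recharges the elongation factor, has 4 members, which held 83.2 and 58.0 CPM in WT and 45.5 and 45.3 in KO (without TMM factors). Both WT libraries were above both KO libraries, and per 100 counts of EEF1B2 the members had 11.0 and 8.36 in WT and 6.12 and 5.97 in KO. The family median was -0.75, and -0.54 without WT replicate 1. EEF1B2P3 had 53.0 and 37.5 CPM in WT and 30.3 and 30.6 in KO (log2 fold change -0.57 ± 0.23 SE, edgeR adjusted p = 0.510), and EEF1B2P1 had 10.7 and 7.35 in WT and 3.10 and 5.09 in KO (-1.11 ± 0.44 SE, adjusted p = 0.498). The values without WT replicate 1 were -0.30 for EEF1B2P3 and -0.83 for EEF1B2P1. The level of EEF1B2 itself had a log2 fold change of 0.055 ± 0.14 (SE) and an adjusted p of 0.956 by edgeR.

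Among RNA-binding proteins, HNRNPA1, a splicing regulator, has 12 members, 10 of them tested. Their median was -0.73, and -0.063 without WT replicate 1. HNRNPA1P59, the tested member with the lowest fitted value, had 11 and 11 counts in WT and 1 and 0 in KO, so the groups do not overlap. The ratio of KO to WT counts, each over library size, was 0.0386, with a 95% exact binomial interval of 0.000936 to 0.239 that covers counting error only. Its log2 fold change of -4.36 ± 0.96 (SE) had an adjusted p of 0.114 by edgeR, and 0.0102 without a filter on low counts. HNRNPA1P59 passed that filter through WT alone, which favours a low value and a low ratio in KO. With WT replicate 1 or WT replicate 2 left out it did not pass, so no value is given there. HNRNPA1P59 lies opposite an intron of KLHL12, which had 54 and 56 counts in WT and 58 and 56 in KO.

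NPM1, a nucleolar chaperone, has 8 members. NPM1P27 had 165 and 89.3 CPM in WT and 142 and 156 in KO, with both KO libraries between the WT libraries, and a fold change of 0.23 ± 0.26 on the log2 scale (SE; edgeR adjusted p = 0.884), and 0.74 without WT replicate 1. Over 4 libraries NPM1P27 had 1866 counts per kilobase and NPM1 had 15520. Its host FAM172A, on the same strand, had 48, 95, 83 and 60 counts in WT replicates 1 and 2 and KO replicates 1 and 2. Whether host RNA adds to the counts of NPM1P27 was not tested.

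The chaperone and isomerase copies named here also had WT replicate 1 as the high library. PPIAP22, a copy of the prolyl isomerase cyclophilin A, had 128 and 66.1 CPM in WT and 103 and 111 in KO, and its log2 fold change was 0.14 ± 0.28 (SE; edgeR adjusted p = 0.940), and 0.69 without WT replicate 1. HSPA8P5, a copy of the constitutive cytosolic chaperone HSPA8, had 13.1 and 7.71 CPM in WT and 3.78 and 9.87 in KO, groups that overlap, with an edgeR adjusted p of 0.796. HSPE1P2, a copy of the mitochondrial co-chaperonin HSPE1, had 14 and 10 counts in WT and 5 and 2 in KO, groups that do not overlap. Its log2 fold change was -1.97 ± 0.66 (SE; edgeR adjusted p = 0.409), and -1.62 without WT replicate 1. HSPE1P2 passed the filter on low counts through WT alone, which favours a low value in KO. The mitochondrial chaperonin HSPD1 and HSPE1 themselves had adjusted p-values of 0.962 and 0.925.

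TMSB4X, which sequesters actin monomers, has 3 members with a median of -1.55, and -1.06 without WT replicate 1. TMSB4XP4 had 16 and 24 counts in WT and 5 and 8 in KO, and TMSB4XP6 had 28 and 17 in WT and 6 and 12 in KO, and in both the groups do not overlap. The log2 fold changes were -1.83 ± 0.49 (SE; edgeR adjusted p = 0.243) and -1.55 ± 0.50 (SE; adjusted p = 0.352). Without WT replicate 1 they were -2.02 and -1.06. TMSB4X itself had 498 and 355 CPM in WT and 455 and 496 in KO, which overlap. YWHAZP5, a copy of the phosphoserine-binding adaptor YWHAZ, had 6.16 and 4.41 CPM in WT and 1.03 and 2.55 in KO, groups that do not overlap (log2 fold change -1.51 ± 0.58 SE, edgeR adjusted p = 0.494; -1.26 without WT replicate 1). TMSB4XP4, TMSB4XP6 and YWHAZP5 passed the filter on low counts through their WT libraries, which favours low values in KO. In TMSB4XP6, KO replicate 2 with 12 counts also reached the limit of that filter.

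HMGB1P6, a copy of the chromatin protein HMGB1, had the highest fitted value of the 65 tested members. It had 57.5 and 51.1 CPM in WT and 82.6 and 67.2 in KO, so both KO libraries were above both WT libraries. Its log2 fold change was 0.46 ± 0.19 (SE), with an unadjusted p of 0.0294 and an adjusted p of 0.513 by edgeR, and 0.55 without WT replicate 1. HMGB1 had 0.17 ± 0.14 (SE) and an adjusted p of 0.825. In HMGB1P6, 42.4% of 100-base windows occurred in no other gene.

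Metabolic genes have few members. LDHB, a lactate dehydrogenase subunit, was the one parent called: it fell by 1.23 ± 0.15 (SE) on the log2 scale, from 228 and 199 CPM in WT to 87.7 and 93.9 in KO, with an edgeR adjusted p of 0.00424. LDHB had -1.13 without WT replicate 1 and was not called (edgeR adjusted p = 0.109), and it was called without each of the other libraries in turn. Its single member, LDHBP2, had 13.6 and 6.25 CPM in WT and 6.88 and 9.23 in KO, which overlap, and a fold change of -0.28 ± 0.42 on the log2 scale (SE; edgeR adjusted p = 0.925), and 0.37 without WT replicate 1. The 4 members of GAPDH, a glycolytic enzyme, held 51.3 and 46.4 CPM in WT and 28.7 and 46.2 in KO (without TMM factors). CYCSP27, of the electron carrier cytochrome c, had 5.34 and 1.84 CPM in WT and 4.47 and 1.91 in KO, so both KO libraries lay between the WT libraries.

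**Figure D3:**
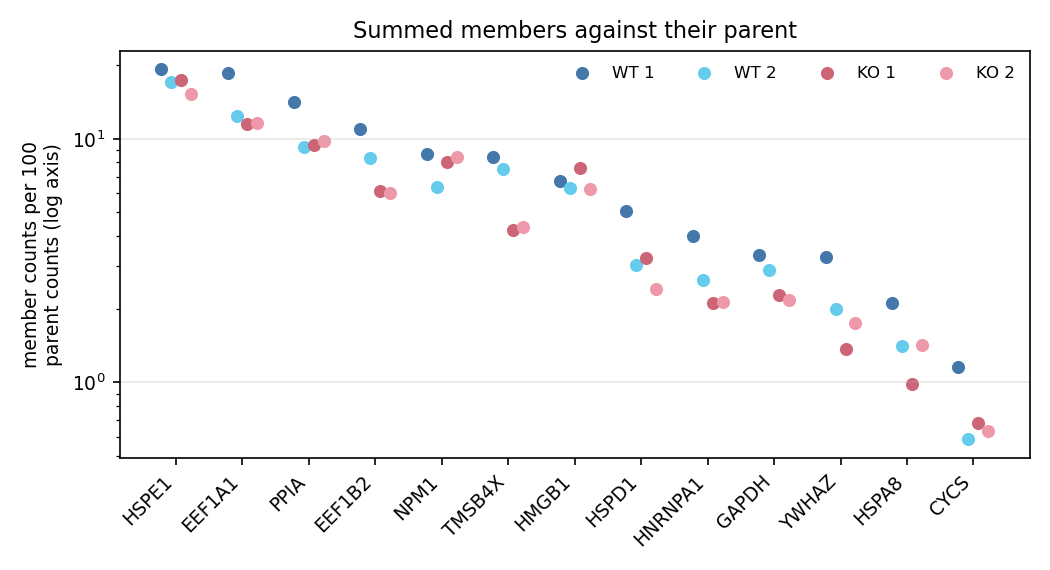
Summed member counts per 100 counts of the parent (log axis) in each library, for the families with 2 or more members other than EIF4A1. EEF1A1 shows 18.7 in WT replicate 1 against 11.5 to 12.4 in the other 3 libraries, and both WT libraries lie above both KO libraries in EEF1A1, EEF1B2, TMSB4X, HNRNPA1, GAPDH and YWHAZ.

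Across the 19 families, the summed members were highest in WT replicate 1 in 17 and in KO replicate 1 in 2. The KO mean lay below the WT mean in 15 families, and below WT replicate 2 in 10. The parents did not lean this way: 27 of 28 were tested, 14 of these lay above 0, and their median was 0.01 with all libraries and 0.10 without WT replicate 1. Of the tested parents, 3.70% were called lower, which is LDHB alone. At an unadjusted p under 0.05 by edgeR, 4 of 27 were lower and 2 higher, beside 4.35% and 4.09% of all tested genes.

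Members with more counts tended to be closer to their parent. Over the 79 members, identity and summed counts had a Spearman correlation of 0.49 and a Pearson correlation of 0.38. Identity had a Spearman correlation of 0.11 with the log2 fold change over the 65 tested members. For summed counts that correlation was 0.40. For the share of 100-base windows in no other gene it was -0.26. The points share the same 4 libraries and many share a parent, so these are descriptions. The 11 tested members that were 98% or more identical lay at a median of -0.20 in log2 fold change, and the 54 others at -0.52. Without WT replicate 1 these were 0.47 over 12 and -0.09 over 53.

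**Figure D4:**
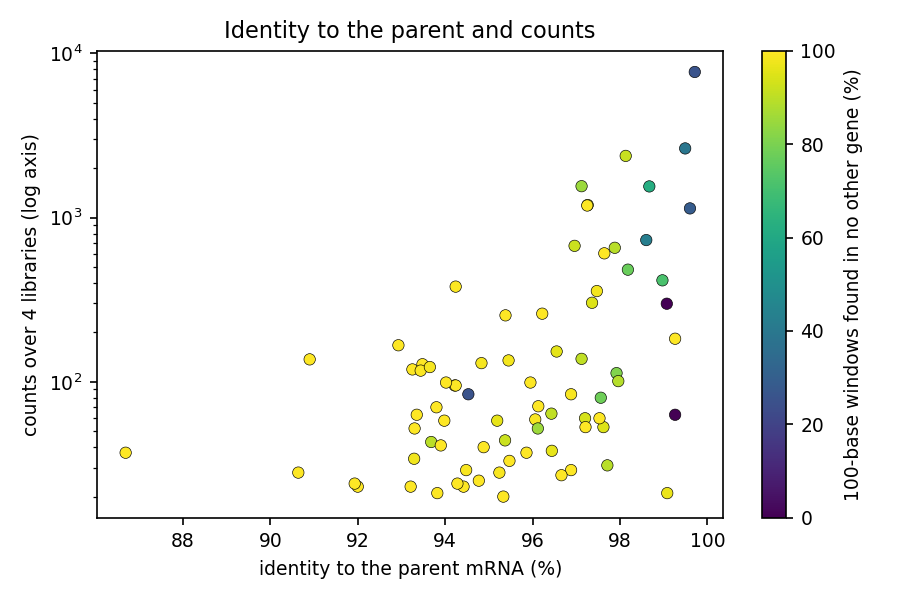
Identity of 78 members to the mRNA of their parent, in %, against their counts summed over 4 libraries (log axis). Colour is the share of 100-base windows found in no other gene; the member with the most counts, EEF1A1P5, is 99.71% identical with 25.9% of such windows.

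Other pseudogenes also lay lower in KO in the median. For the 176 tested pseudogenes of ribosomal proteins the median was -0.70 in log2 fold change, and edgeR called 14 of them lower, which is 7.95%. That count was 0 of 183 without WT replicate 1 (39 lower at an unadjusted p under 0.05), 6 of 200 without WT replicate 2, 32 of 206 without KO replicate 1 and 46 of 201 without KO replicate 2. Without WT replicate 1 their median was -0.40, where that of the members was -0.013. Other processed pseudogenes had -0.38 and -0.16, and protein-coding genes 0.02 and 0.01. The share of all counts in ribosomal protein pseudogenes was 0.777% in WT replicate 1, 0.524% in WT replicate 2, and 0.384% and 0.399% in KO, so both WT libraries were above both KO libraries. For the members the shares were 0.367%, 0.206%, 0.241% and 0.240%, which overlap. The difference between these classes was not tested.

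**Figure D5:**
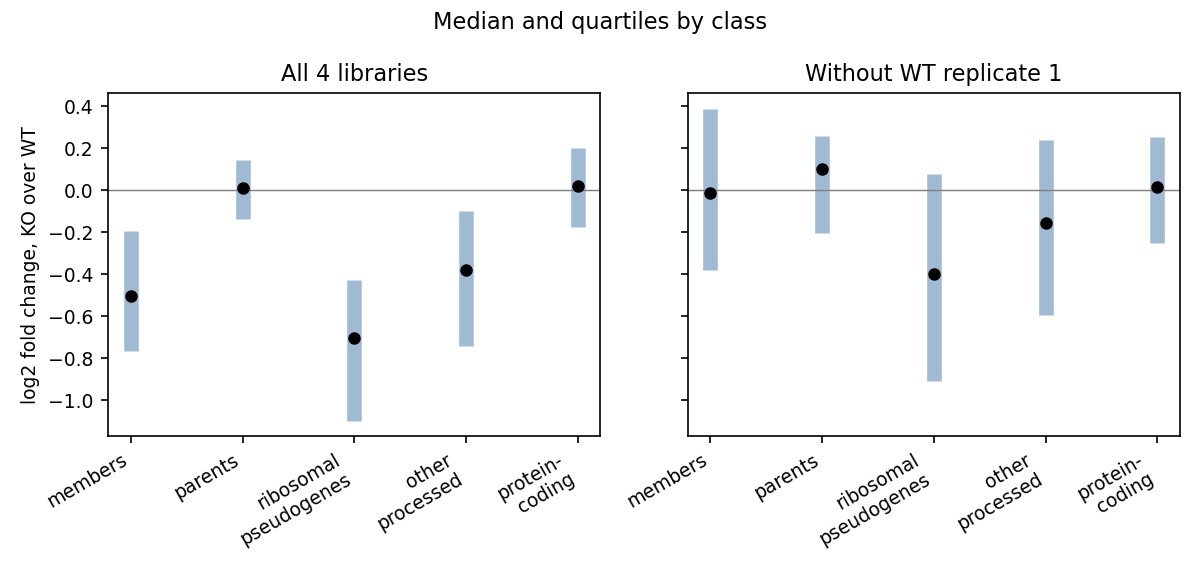
Median (point) and quartiles (bar) of log2 fold change by class, KO over WT, with all libraries and without WT replicate 1. The median of the members is -0.50 on the left and -0.013 on the right, and that of ribosomal protein pseudogenes is -0.70 and -0.40.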

How the data were processed

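Polyadenylated RNA of 2 WT and 2 KO libraries was measured. The submitters' processing notes name hg38, STAR and HTSeq, with DESeq2, Trimmomatic and FastQC. Versions, annotation release, strand setting and read length were not stated in these. The deposited tables hold raw counts per gene, as whole numbers, by library, and libraries were taken from the sheet names. The authors' deposited comparison table gives, per the file headers, a base mean (a signal in size-factor-scaled counts), a log2 fold change, its standard error and a Wald score, and p-values.

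Members and lists were chosen with earlier results of these data known. Named members were the 10 of smallest p, the 10 of highest counts, the highest of each family, and those next to the threshold; 1 member was kept in counts and medians but is neither described singly nor plotted. Counts were filtered with filterByExpr (minimum count 10), TMM-scaled and fitted by genotype alone (R 4.3.3; edgeR 4.0.16, robust quasi-likelihood test), with Benjamini-Hochberg adjustment over 10670 genes. The SE of an edgeR log2 fold change is its absolute value over the square root of the F statistic of the test. DESeq2 1.42.0 was an alternative. CPM used TMM-scaled library sizes unless said to be without TMM factors. In simulated counts, 13.4% of changes by 1.5-fold were recovered, 46.3% by 2-fold and 87.9% by 4-fold, over 10670 genes with 7 false among 105 calls. Every gene was simulated at 1 common coefficient of variation between replicates, 0.143. The difference between the WT libraries in the members was not simulated, so these rates need not hold for them. Transcripts of GENCODE 29 were aligned locally with Biopython 1.88. Replicates are separate samples per the labels' protocols; intervals cover counting error only.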

Additional observations from a re-analysis of the deposited data

How the results depend on the processing

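The call of 0 members and the median of -0.50 kept their side under RLE scaling and DESeq2; the median was -0.52 and -0.49 there, and -0.51 without members inside other genes or those 97% or more identical. Leaving out single libraries moved the member median between -0.92 and -0.013, the parents' median between -0.098 and 0.10, the summed level between -0.61 and 0.22, members called lower between 0 and 2, and all called genes between 7 and 193; a lone library is then assumed to vary like the other group. Without a filter, 156 genes and 2 members were called (EIF4A1P10 with an adjusted p of 0.00349 and HNRNPA1P59 with 0.0102, edgeR). EEF1A1P9 was called without WT replicate 2 (adjusted p 0.0459) and without KO replicate 2 (0.00717), and EIF4A1P10 without KO replicate 2 (0.0306). With the replicate number as a block, 140 genes and 3 members were called (EIF4A1P10, HNRNPA1P59 and EEF1A1P9). The labels do not say whether equal numbers mark paired samples. Deviations of same-numbered libraries from their group means correlated at -0.0351 over the tested genes, which does not settle it.

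With single libraries left out, the sign changed for these of the named members, with ranges of log2 fold change from -0.90 to 0.77 (CYCSP27), -0.86 to 0.042 (EEF1A1P13), -0.81 to 0.21 (EEF1A1P19), -0.41 to 0.62 (EEF1A1P5), -0.71 to 0.27 (EEF1A1P6), -1.35 to 0.0027 (EEF1A1P9), -0.98 to 0.30 (HNRNPA1P4), -0.62 to 0.43 (HSPE1P4), -0.77 to 0.37 (LDHBP2), -0.18 to 0.74 (NPM1P27), -0.30 to 0.69 (PPIAP22) and -0.66 to 0.39 (TMSB4XP8). Members not listed changed sign too: 57 of 65 tested members lay below 0 with all libraries, and 33 of 65 without WT replicate 1. The cause was not tested. At this depth, members under 50 counts, of which there are 24, allow only large differences to be seen.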

Other observations

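The share of counts in all pseudogene types, which include the members, was also highest in WT replicate 1, at 1.78%, against 1.26% in WT replicate 2 and 1.00% and 1.04% in KO. The summed level of the 28 parents did not follow that order, with 35910 CPM in WT replicate 1, 30700 in WT replicate 2 and 36100 in each KO library. Olfactory receptor genes, which the line should hardly transcribe, had 37 and 32 counts in WT and 48 and 52 in KO. The part of any of these in the result was not tested.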
